A study of Mus musculus with 9 samples.

Results

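The 10 genes described here act in the sperm acrosome and in sperm-egg fusion and were followed through an ac4C immunoprecipitation experiment in mouse testis. They were taken by name and not by a limit on measured values, as Acr, Acrbp, Acrv1, Spaca1, Spaca3, Spam1, Zpbp, Zpbp2, Izumo1 and Prss21, 10 of the 55401 genes in the count table. All 10 were found in the table by symbol, and all 10 passed the filter on low counts. N4-acetylcytidine (ac4C) is an acetylated form of the base cytidine, and acRIP-seq recovers poly(A) RNA on beads that carry an anti-ac4C antibody and sequences it. All 9 libraries came from testes labelled male and WT, 3 of RNA before precipitation (input), 3 of RNA recovered by the anti-ac4C antibody (acRIP) and 3 of RNA recovered by a control immunoglobulin (IgG), and the study's methods name ICR as the mouse strain. The ages of the donor mice and the number of animals behind each library are not given in the sources used here, so p-values measure only the spread between these libraries, which may be technical. The methods add a β-globin RNA probe that contains ac4C to the RNA before precipitation, and they describe the precipitated RNA as too scarce to quantify, so the comparisons below are of shares of a library and not of amounts of RNA recovered.

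The acrosome is a secretory vesicle that caps the sperm nucleus. It forms from the Golgi apparatus in round spermatids, and its contents are released before the sperm passes the egg's coat, the zona pellucida. A protein of the exposed inner surface then binds the egg membrane and the gametes fuse. Acr encodes acrosin, the main acrosomal serine protease, and Acrbp encodes a protein that binds its proenzyme. Prss21 encodes testisin, a serine protease anchored to the sperm surface. Acrv1, also called SP-10, is a protein of the acrosomal matrix, Spaca1 an acrosomal membrane protein, and Spaca3 a lysozyme-like acrosomal protein. Spam1, also called PH-20, is a sperm hyaluronidase, Zpbp and Zpbp2 are paralogous zona pellucida binding proteins, and Izumo1 is the sperm protein that binds Juno on the egg.

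The genes lie on 7 chromosomes of the mm10 assembly, by the GENCODE vM21 annotation. Zpbp covers chr11:11279626-11462408 on the minus strand and Zpbp2 chr11:98551097-98558665 on the plus strand, so the paralogues share a chromosome and are far apart. Spaca3 lies between them at chr11:80858365-80867814. Spam1 (chr6:24791188-24801048) and Acrbp (chr6:125049689-125063267) share chromosome 6. Acr lies at chr15:89568326-89574585, Acrv1 at chr9:36693220-36698843, Spaca1 at chr4:34024874-34050191, Izumo1 at chr7:45621811-45628823 and Prss21 at chr17:23868056-23873114, all on the plus strand except Spaca1.

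The study names a motif found in its testis ac4C peaks, in a form of 8 bases and in one of 9 with another C in front. The form of 9 bases was used, which reads CC, then any base but G, then CAG, then C or G, then any base but G, then C. It was searched on the transcript strand of the longest annotated transcript of each gene. Matches were present in 4 of the 10 genes, against 48.6% of 15522 protein-coding genes tested and 41.7% of the 3637 protein-coding genes with a mean of 1000 counts or more. The 4 were Acr, Acrbp, Izumo1 and Prss21. With the form of 8 bases, added after the data were seen, 6 of the 10 genes held a match (Acrv1 and Zpbp besides these 4), against 80.7% and 75.6%. For Acrv1, Izumo1 and Prss21 the longest annotated transcript is a retained-intron form. In the longest protein-coding transcript, a choice added after the data were seen, 2 of the 10 genes held a match of 9 bases, against 47.0% and 39.6%. Every 9-base match of Izumo1 and Prss21 lies outside the exons of that transcript. Within the last 900 bases of the longest protein-coding transcript, a window of one length for every gene, 2 of 10 genes held a match against 17.3% of the protein-coding genes tested that are long enough. Over the whole of that transcript, 5 of the 10 genes held the form of 8 bases (Acr, Acrbp, Acrv1, Prss21 and Zpbp), against 78.7% and 72.8%. A 9-base match in each of Acr and Acrbp is printed, since only their longest protein-coding transcripts among the 10 carry that form. Each match is in capitals with 10 bases on each side, at its coordinates on the plus strand of mm10. The first lies in coding sequence of exon 4 of Acr and the second in the 3′ untranslated part of exon 10 of Acrbp.
Acr chr15:89573120-89573128: aagagaaggcCCCCAGGCCatcacctgtc
Acrbp chr6:125063080-125063088: tgtccccccaCCCCAGCTCtaccttgctc
A match is a run of letters and was not measured as an acetylated site, since the deposited values are totals per gene.

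The promoters are shown for the paralogous pair and for Izumo1, since Zpbp and Zpbp2 moved in opposite directions against input below and Izumo1 holds the longest motif match. RefSeq promoter sequences (GRCm38.p6) matched 9 of the 10 genes, and Acr had no entry. The cyclic AMP response element TGACGTCA and its short form TGACG, letters known from the binding of the spermatid activator CREM, were searched on both strands of the 250 bases before each start site. The short form was present in 5 of the 9 genes (Acrbp, Izumo1, Spaca1, Spaca3 and Zpbp2), against 17.8% of 32851 promoters. Members were counted per gene and the background per listed start site, so the shares are not of the same unit. The whole element was present in Izumo1 alone of the 9, against 1.55% of promoters, and it contains the short form on each strand. Matches are in capitals, and for Zpbp2 the match is on the opposite strand. Spaca1 and Spaca3 each have a pair of listed start sites, with matches before both. These libraries do not measure promoter activity.
Izumo1 chr7:45621561-45621810, plus strand: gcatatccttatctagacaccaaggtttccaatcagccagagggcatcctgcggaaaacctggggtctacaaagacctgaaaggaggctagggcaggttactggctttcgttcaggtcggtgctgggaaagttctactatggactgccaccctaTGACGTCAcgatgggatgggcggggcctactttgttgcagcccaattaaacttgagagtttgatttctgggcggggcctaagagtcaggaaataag
Zpbp2 chr11:98550847-98551096, plus strand: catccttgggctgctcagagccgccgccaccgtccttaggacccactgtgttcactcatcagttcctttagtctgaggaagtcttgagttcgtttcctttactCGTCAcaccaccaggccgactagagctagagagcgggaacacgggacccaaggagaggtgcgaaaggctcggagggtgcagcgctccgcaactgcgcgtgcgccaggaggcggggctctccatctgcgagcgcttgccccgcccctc
Zpbp chr11:11462420-11462669, minus strand: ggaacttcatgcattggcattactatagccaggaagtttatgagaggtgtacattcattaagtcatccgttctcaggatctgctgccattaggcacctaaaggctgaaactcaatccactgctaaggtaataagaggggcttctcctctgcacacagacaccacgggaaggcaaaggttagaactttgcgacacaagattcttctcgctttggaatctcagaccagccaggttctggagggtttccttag

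Between 14647542 and 31340090 counts were assigned to genes per library. Among genes with 1 to 20 counts, 81.9% to 84.3% had an even count per library, a pattern that counting both mates of a pair would give, and precision is then lower than the totals imply. Sums of markers are in CPM (counts scaled to 1000000 per library). Round spermatids are the cells that build the acrosome, and their 6 markers were not at 0. They summed to 3255 to 3460 CPM in input, 3089 to 3201 in IgG and 3189 to 3320 in acRIP. The 8 spermatocyte markers summed to 10722 to 10885 CPM in input, 9759 to 9840 in IgG and 8861 to 9329 in acRIP. Somatic markers were present too. The 7 Leydig cell markers summed to 1115 to 1147 CPM in input, 1001 to 1014 in IgG and 934 to 964 in acRIP. The 9 Sertoli cell markers, of which 1 was at 0 in all libraries, summed to 940 to 979, 784 to 820 and 705 to 728, and the 5 macrophage markers to 89.9 to 96.3, 66.5 to 69.4 and 56.6 to 60.5. For Leydig, Sertoli and macrophage markers, as for spermatocytes, the sums were lowest in acRIP. The 4 peritubular myoid markers went the other way, at 41.5 to 42.1 CPM in input, 52.6 to 56.4 in IgG and 54.1 to 59.1 in acRIP, and the 7 spermatogonial markers summed to 75.8 to 87.3, 97.1 to 113 and 81.7 to 89.6. A sum is weighted to its most abundant genes. Taken gene by gene against input (edgeR, adjusted p under 0.05), 2 Leydig markers rose in acRIP and 2 fell (median log2 fold change 0.04). Of 7 Sertoli markers tested, 3 rose and 3 fell (median 0.07). Spermatocyte markers mostly fell, with 1 up and 6 down (median -0.50), and 5 macrophage markers fell (median -3.70). The 8 epididymal markers, of which 2 were at 0 throughout, summed to 18.8 to 21.0 CPM in input, 15.4 to 15.8 in IgG and 29.3 to 30.6 in acRIP. Of the 4 that passed the filter on low counts, Rnase10 was higher in acRIP than in input (log2 fold change 1.67) and 3 were lower. Each of these differences was past 2-fold at an adjusted p under 0.05 (edgeR). Their part in the results below was not tested.

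In input RNA the 10 genes together took 3138 ± 23.1 CPM (SD, n = 3). Their share was 2315 ± 24.7 in IgG and 2091 ± 62.1 in acRIP. In every input library the sum exceeded that of every precipitated library. Input is RNA of bulk tissue, in which fewer cells of a type and less RNA per cell cannot be told apart. The cause of the lower share in the precipitated libraries was not tested.

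Levels of different genes were compared as FPKM, which divides a count by the length of the merged exons and by the library total. Zpbp2 was the most abundant of the 10 in input at 527 ± 7.62 FPKM, followed by Spaca1 (310 ± 5.99), Spaca3 (290 ± 8.40) and Acr (180 ± 7.26). Acrv1 (82.7 ± 1.57) and Acrbp (79.7 ± 2.83) came next and overlapped between libraries. Spam1 (66.2 ± 2.92) and Izumo1 (63.2 ± 3.16) overlapped likewise. Prss21 (56.0 ± 1.47) and Zpbp (41.7 ± 1.98) were the least abundant, all as mean ± SD over 3 libraries. The genes at the top therefore include a zona binding protein, an acrosomal membrane protein and a lysozyme-like protein, and the protease Acr came after them. Merged exons include retained introns, so the lengths are larger than the coding transcripts, 2992 bases against 1493 for Izumo1 and 3647 against 1101 for Acrv1, and such genes get a lower FPKM.

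**Figure D1:**
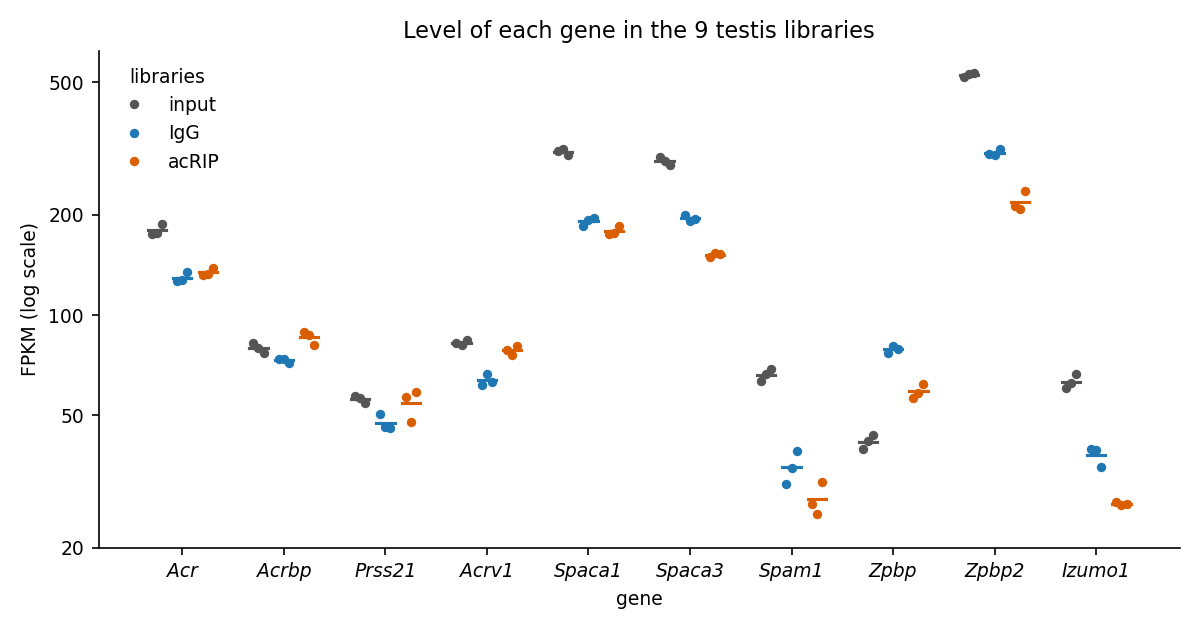
FPKM of each of the 10 genes on a log axis, 1 point a library, with a bar at the mean of the 3 libraries of a group. Input libraries of Zpbp2 lie near 527 and those of Zpbp near 41.7, and Zpbp is the gene whose input libraries lie below both its IgG and its acRIP libraries.

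The order differed in the precipitated libraries. In acRIP it ran from Zpbp2 (219 ± 14.4 FPKM) through Spaca1 (179 ± 5.20), Spaca3 (152 ± 2.00), Acr (135 ± 3.4), Acrbp (85.7 ± 3.78) and Acrv1 (78.4 ± 2.45) to Zpbp (59.0 ± 2.85), which overlapped Prss21 (54.4 ± 5.75). Spam1 (28.0 ± 3.18) and Izumo1 (27.1 ± 0.304) overlapped at the end. In IgG, Zpbp2 (307 ± 6.34) was followed by Spaca3 (195 ± 4.0) and Spaca1 (191 ± 5.38), which overlapped, and then by Acr (129 ± 4.69), Zpbp (78.9 ± 2.03), Acrbp (73.1 ± 1.01), Acrv1 (63.7 ± 2.49) and Prss21 (47.5 ± 2.67). Izumo1 (38.0 ± 2.52) and Spam1 (35.0 ± 4.04) overlapped. By merged exon lengths, Zpbp thus moved from the tenth place in input to the fifth in IgG and the seventh in acRIP. Places among genes depend on these lengths, and no other length was tried.

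The IgG libraries give the background of the precipitation, the RNA that a control antibody and the beads hold. Against input, Zpbp was the single gene of the 10 that was higher in IgG, and 8 genes were lower, while Acrbp did not pass. Counts were tested with edgeR over 22510 genes. A gene past an adjusted p of 0.05 and a 2-fold difference is called below, and percentages over all genes tested are the background. No member was called higher (background 13.5%) or lower (background 7.22%) past 2-fold. By adjusted p alone 1 was higher (background 25.9%) and 8 were lower (background 26%). The median log2 fold change of the 10 was -0.49, and that of all genes tested was -0.01. All 10 have a mean of 1000 counts or more. Of the 3637 protein-coding genes with such a mean, 1122 were higher and 1762 lower by adjusted p alone, with a median of -0.11.

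Zpbp stood at 39.6, 41.8 and 43.6 FPKM in the input libraries, at 76.7, 80.7 and 79.3 in IgG and at 56.5, 58.4 and 62.1 in acRIP. The groups did not overlap, with input lowest and IgG highest. Its log2 fold change in IgG over input was 0.95 ± 0.04 (SE), a 1.94-fold difference (edgeR, adjusted p = 1.65e-18), with a 95% interval of 0.86 to 1.04 that includes the 2-fold limit. In acRIP over input it was 0.58 ± 0.04 (adjusted p = 3.88e-13, edgeR). Exons of Zpbp share 223 of 4248 bases with Spata48 on the opposite strand, and the strand setting of the counting is not stated. Spata48, named for this overlap and not by its values, had a log2 fold change of -0.21 in IgG over input and -0.43 in acRIP over input. The effect of the overlap on the counts of Zpbp was not tested.

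Zpbp2, the paralogue, ran the other way. Its level was 519, 528 and 534 FPKM in input, 304, 303 and 315 in IgG and 213, 209 and 236 in acRIP. Every input library exceeded every IgG library, and every IgG library exceeded every acRIP library. The log2 fold change was -0.75 ± 0.04 (SE) in IgG over input (adjusted p = 1.49e-17, edgeR).

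The ratio of Zpbp2 to Zpbp puts the opposite movement in one value per library. It was 13.1, 12.6 and 12.3 in input, 3.97, 3.76 and 3.97 in IgG, and 3.77, 3.57 and 3.79 in acRIP. The input mean of 12.7 ± 0.422 (SD) stood 3.25 times above IgG and 3.41 times above acRIP, as ratios of geometric means, and the libraries did not overlap. An exact two-sided permutation test of 3 libraries against 3 gave p = 0.1 for each of these comparisons, the smallest p this design can give (0.15 after Benjamini-Hochberg adjustment of the permutation p-values over 3 comparisons). Between acRIP (3.71 ± 0.124) and IgG (3.90 ± 0.122) the ratio differed 1.05-fold, with overlapping libraries and an exact p of 0.3.

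**Figure D2:**
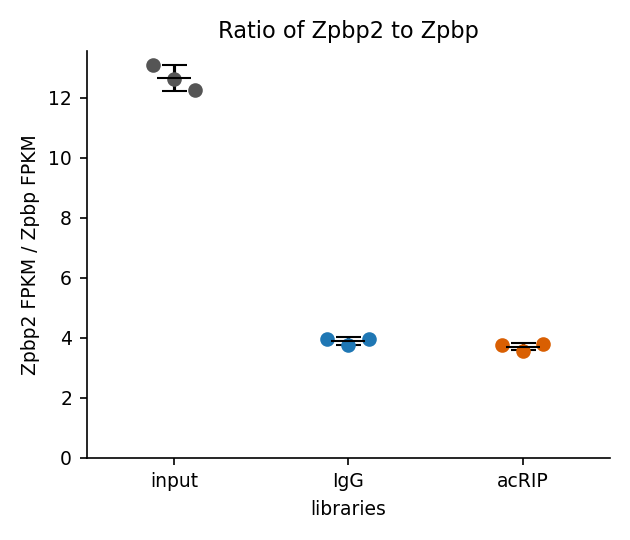
Zpbp2 FPKM divided by Zpbp FPKM in each library (points), with the mean and SD of each group of 3. Input libraries lie between 12.3 and 13.1, and IgG and acRIP libraries between 3.57 and 3.97.

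The other genes lower in IgG than in input had log2 fold changes from -0.88 for Spam1 (adjusted p = 1.69e-12, edgeR) to -0.21 for Prss21 (adjusted p = 0.00424). Izumo1 had -0.70, Spaca1 -0.66, Spaca3 -0.54, Acr -0.44 and Acrv1 -0.35. Acrbp had -0.09 ± 0.04 (SE), with an adjusted p of 0.0744, and it passed under the replicate block (adjusted p = 0.0478), upper quartile scaling (0.000573), no filter on low counts (0.0225) and without input replicate 3 (0.0441).

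Against input, the acRIP libraries held less of the zona binding protein Zpbp2, the hyaluronidase Spam1 and the fusion protein Izumo1, each past 2-fold, and more of Zpbp and Acrbp. The 3 were called lower (background 22.9%), and none was called higher (background 17.7%). By adjusted p alone 2 were higher (background 32%) and 6 were lower (background 40.3%). The median log2 fold change of the 10 was -0.52 and that of all genes tested -0.10. Of the 3637 abundant protein-coding genes, 1187 were higher and 1873 lower by adjusted p alone, with a median of -0.14. Input and the precipitated libraries differ in the handling of the RNA as well as in the antibody, which cannot be told apart in this comparison, and the IgG libraries were compared with the same input libraries.

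Spam1 was at 63.2, 66.4 and 69.0 FPKM in input, at 31.1, 34.7 and 39.2 in IgG and at 27.1, 25.3 and 31.5 in acRIP. Input lay above both, while the IgG and acRIP libraries overlapped at about 31 FPKM. Its log2 fold change in acRIP over input was -1.17 ± 0.07 (SE), 2.24-fold lower (adjusted p = 1.74e-15, edgeR). Izumo1 was at 60.4, 62.4 and 66.6 FPKM in input, at 39.5, 39.4 and 35.1 in IgG and at 27.4, 26.8 and 27.0 in acRIP. The groups did not overlap, and the acRIP libraries lay closest together. The log2 fold change of Izumo1 in acRIP over input was -1.14 ± 0.05 (SE), 2.20-fold lower (adjusted p = 2.29e-18, edgeR). The log2 fold change of Zpbp2 was -1.19 ± 0.04 (SE), 2.28-fold lower (adjusted p = 7.13e-23).

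Spaca3 (-0.85), Spaca1 (-0.71) and Acr (-0.34) were lower in acRIP than in input by less than 2-fold (edgeR adjusted p of 5.40e-08 or smaller). Acrbp rose by a log2 fold change of 0.18 ± 0.04 (SE, adjusted p = 0.000397). Acrv1 had 0.00 (95% interval -0.08 to 0.09) and Prss21 had 0.04 (-0.08 to 0.16), neither past the threshold. The sign of both turned under upper quartile scaling. With TMM scaling, Prss21, Acrv1, Acrbp and Zpbp were thus the genes that did not pass as lower in acRIP than in input.

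**Figure D3:**
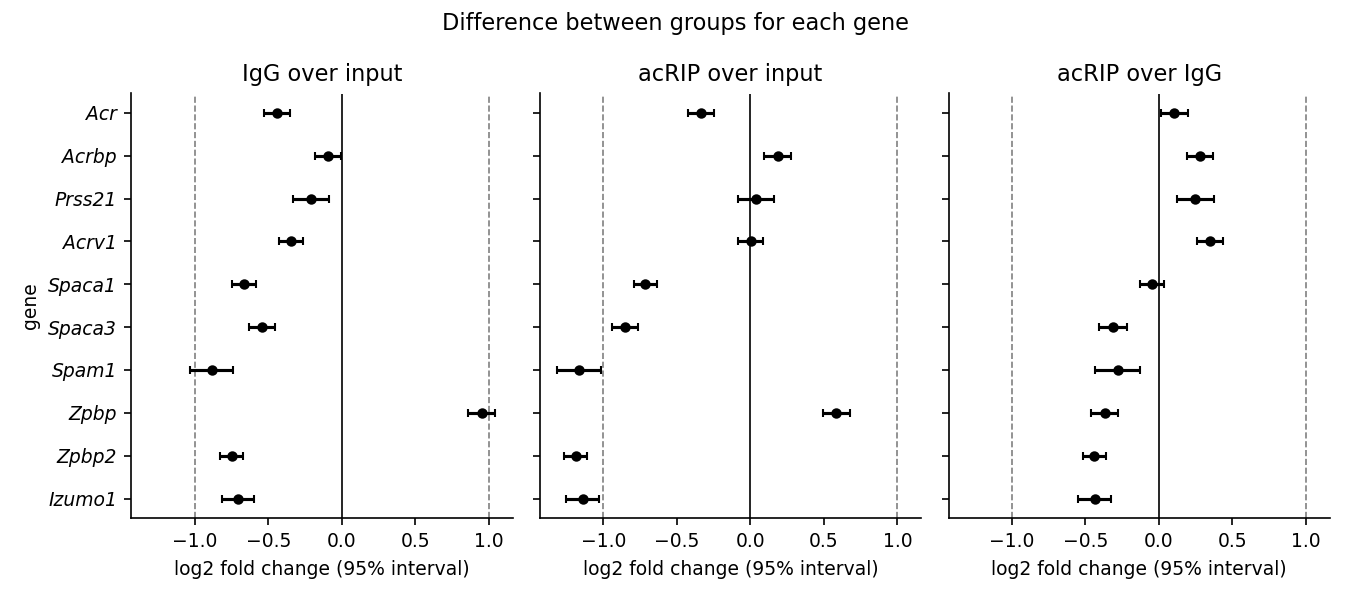
log2 fold change of each gene in the 3 comparisons with its 95% interval (edgeR), dashed lines at 2-fold. Spam1, Zpbp2 and Izumo1 lie past the lower line in acRIP over input, and in acRIP over IgG all 10 lie between -0.44 and 0.35.

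The comparison of acRIP with IgG asks which RNAs the anti-ac4C antibody held beyond the control antibody. The proteases Acr and Prss21, the acrosin binding protein Acrbp and the matrix protein Acrv1 were higher in acRIP, by at most 1.27-fold. The zona binding proteins Zpbp and Zpbp2, the hyaluronidase Spam1, the lysozyme-like Spaca3 and the fusion protein Izumo1 were lower, by at most 1.36-fold. None of the 10 was called past 2-fold, higher (background 11.5%) or lower (background 20.9%). By adjusted p alone 4 were higher (background 26.4%) and 5 were lower (background 37.6%). The median log2 fold change was -0.16, beside -0.09 for all genes tested and -0.05 for the 3637 abundant protein-coding genes. By adjusted p alone 1034 of the 3637 were higher and 1453 lower over IgG. Among those 3637 genes, each with a mean of 1000 counts or more as all 10 have, 6 were called higher and 24 lower over IgG, and 276 higher and 254 lower (6.98%) in acRIP over input, where 3 of the 10 were called lower.

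Acrv1 was at 82.6, 81.1 and 84.2 FPKM in input, at 61.6, 66.5 and 63.0 in IgG and at 78.5, 75.8 and 80.8 in acRIP. On this scale of library totals its acRIP libraries lay above IgG and below input, without overlap. On the TMM scale of the test, the acRIP libraries (79.0 to 82.5) and the input libraries (79.1 to 81.9) overlapped, and both lay above IgG. With the 10 genes of most counts left out of the library totals, the acRIP libraries (89.1 to 93.5) lay above input (85.1 to 88.35). The log2 fold change over IgG was 0.35 ± 0.04 (SE, adjusted p = 2.34e-08, edgeR). Acrbp was at 82.6, 79.4 and 76.97 FPKM in input, at 73.6, 73.8 and 72.0 in IgG and at 88.8, 86.9 and 81.5 in acRIP. Its acRIP libraries lay above all IgG libraries, and 1 of them overlapped input, although none did on the TMM scale. The log2 fold change over IgG was 0.28 ± 0.04 (SE, adjusted p = 2.71e-06, edgeR). Acrbp shares 975 of 3277 exon bases with Gm44597 on the same strand, which had a mean of 15.8 counts per library, against 5192 for Acrbp. How many reads fell in the shared bases is not known from these totals, and the effect of the overlap on Acrbp was not tested.

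Prss21 had a log2 fold change over IgG of 0.25 ± 0.06 (SE, adjusted p = 0.000804, edgeR), and its libraries overlapped, from 47.9 to 58.8 FPKM in acRIP and from 45.8 to 50.5 in IgG. Acr had 0.11 ± 0.04 (adjusted p = 0.0399), and its libraries overlapped too, although not on the TMM scale. The call for Acr was lost with a stricter filter on low counts (adjusted p = 0.0588), without acRIP replicate 3 (0.0897), without IgG replicate 1 (0.152) and without IgG replicate 2 (0.115). Spaca1 had -0.05 with a 95% interval of -0.13 to 0.03 (adjusted p = 0.281).

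Zpbp2 and Izumo1 had the lowest log2 fold changes over IgG of the 10, -0.44 for each (adjusted p = 4.08e-11 and 6.44e-08, edgeR). Zpbp had -0.37, so relative to IgG the paralogues were lower together, while relative to input they moved apart. Spaca3 had -0.31 and Spam1 -0.28. Izumo1 shares 654 of 2992 exon bases with Rasip1 on the same strand, which had a mean of 30.8 counts per library. The effect of this overlap on the counts of Izumo1 was not tested.

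**Figure D4:**
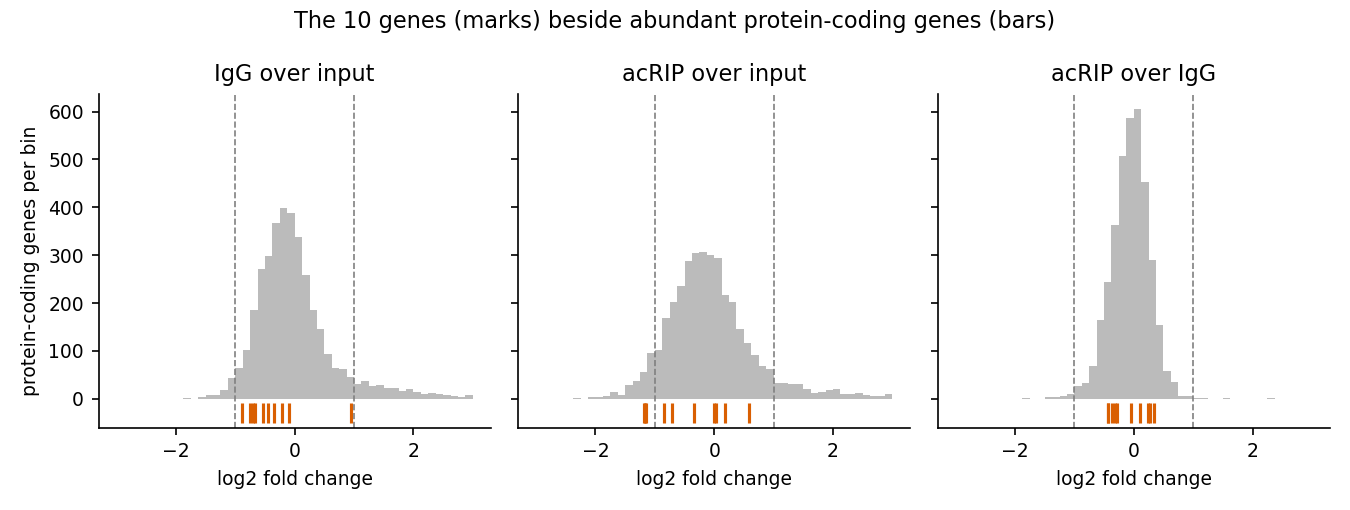
Number of protein-coding genes with a mean of 1000 counts or more (bars, 3637 genes) by log2 fold change, with the 10 genes as marks below, dashed lines at 2-fold and values beyond 3 placed in the end bins. In acRIP over IgG most genes and all 10 marks lie between the dashed lines, while in acRIP over input 3 marks lie below the lower line.

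The 10 genes did not follow one profile over the libraries. Each was set against the mean centred log2 CPM of the other 9 over the 9 libraries, as a description in which group differences carry most of the spread. Pearson's r was 0.98 for Spaca1 and for Spam1, 0.97 for Zpbp2, 0.96 for Spaca3, 0.94 for Izumo1 and 0.88 for Acr. It was 0.25 for Acrv1, 0.12 for Prss21, -0.42 for Acrbp and -0.87 for Zpbp. The 5 genes most like the mean profile of the 10, among 12556 genes with a mean of 100 counts or more, were 1700074P13Rik, Pgk2, Lrriq3, Caprin1 and Atp1a4, with r of 0.998 each. Their log2 fold changes in acRIP over input ran from -0.62 for Pgk2, the glycolytic kinase of spermatogenic cells, to -1.42 for Lrriq3, and in acRIP over IgG from -0.11 for Pgk2 to -0.28 for Lrriq3.

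Transcript length and base composition varied widely among the 10. In the longest protein-coding transcript, length ran from 947 bases for Spaca3 to 4248 for Zpbp, with a median of 1499 against 2532 for abundant protein-coding genes. The share of C ran from 18.8% for Spam1 to 29.8% for Acr, around a median of 23.9% in both sets. Across the 10 genes, which are not replicates, Spearman's rho of the log2 fold change over IgG with the share of C was 0.53, and across the 3637 abundant genes it was 0.13. With the longest annotated transcript of the 10 it was -0.02, so this value depends on which transcript stands for 3 of the genes.

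Related genes were read from lists of the same pathway. Their counts are by adjusted p alone and stand beside the background of all genes tested, 26.4% higher and 37.6% lower over IgG, 32% and 40.3% in acRIP over input, and 25.9% and 26% in IgG over input. Of the 3637 abundant protein-coding genes, 1034 were higher and 1453 lower over IgG. In acRIP over input these numbers were 1187 and 1873, and in IgG over input 1122 and 1762. Of 26 further genes of the acrosomal matrix and membrane tested, 12 rose and 9 fell over IgG, with a median log2 fold change of 0.09. Against input 5 were higher and 17 lower, with a median of -0.25, and in IgG over input 4 were higher and 15 lower, with a median of -0.20. Among genes with a mean of 100 counts or more, to which the names in these lists are limited, the highest over IgG were the lysozyme-like genes Lyzl4 (0.32) and Lyzl6 (0.29) and the protease-like Prss37 (0.32). The lowest were the hyaluronidase Hyal5 (-0.62), a relative of Spam1, the lysozyme-like Spaca5 (-0.61) and Tex101 (-0.48). Hyal4, with a mean of 40.4 counts and named after its value was seen, had 1.42 and was the single gene of this list called past 2-fold over IgG. The lysozyme-like genes therefore lay on both sides, and Spaca3 with them at -0.31.

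Of 32 genes of acrosome biogenesis tested, 8 were higher and 17 lower over IgG, with a median of -0.14. Among those with a mean of 100 counts or more, the vesicle fusion gene Vamp2 (0.91), Vps13b (0.66) and Fam71f1 (0.44) were highest. The Golgi-associated Gopc (-1.41), Gba2 (-1.39) and Pick1 (-0.66) were lowest of these. Against input 13 were higher and 16 lower (median -0.06), and in IgG over input 12 were higher and 12 lower (median 0.03). Gopc, Gba2 and Stx1a (-4.72, a mean of 46.4 counts, named after its value was seen) were called lower past 2-fold over IgG, and none of the 10 genes was.

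Of 13 other genes of sperm-egg fusion tested, with Spata46 also in the biogenesis list, 4 were higher and 5 lower over IgG, with a median of 0.07. With upper quartile scaling 7 were higher. Tmem95 (0.65), Izumo4 (0.40) and Izumo3 (0.37) were highest, whereas Izumo1 had -0.44. Cd9 (-1.56), an egg-side tetraspanin with a mean of 121 counts per library, Tmem81 (-0.66) and Dcst2 (-0.63) were lowest. Against input 2 were higher and 10 lower (median -0.29), and in IgG over input none was higher and 8 were lower (median -0.27). In IgG over input 1 was higher without input replicate 1 or without IgG replicate 1. The same held with the stricter filter on low counts, the 6 libraries alone or halved counts.

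A list of 14 other trypsin-like proteases of testis, of which Tmprss12 is also in the matrix and membrane list, had 2 higher and 7 lower over IgG, with a median of -0.08. The count of 2 ran from 1 (with the stricter filter on low counts, without input replicate 2 or without acRIP replicate 3) to 4 over the alternatives. Against input 3 were higher and 8 lower (median -0.26), with 1 higher without acRIP replicate 1, and in IgG over input 4 were higher and 8 lower (median -0.25). Of 5 genes of spermatid nuclear packaging, 5 were higher in acRIP than in input (median 0.34) and 4 in IgG than in input (median 0.20). Over IgG, 3 of them were higher and 1 lower, from Tnp1 (0.48) to Prm2 (-0.11). Of 10 sperm tail genes, 3 were higher and 3 lower over IgG, from Odf1 (0.42) to Akap4 (-0.21), and 2 rose and 8 fell in each precipitated group against input (median -0.32 in acRIP and -0.35 in IgG). The count of 3 higher over IgG was 5 without acRIP replicate 3 and with RLE or upper quartile scaling, DESeq2, no filter, the 6 libraries alone or the replicate block. In IgG over input 1 in place of 2 was higher without input replicate 2, input replicate 3 or IgG replicate 1, and with upper quartile scaling or no filter.

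**Figure D5:**
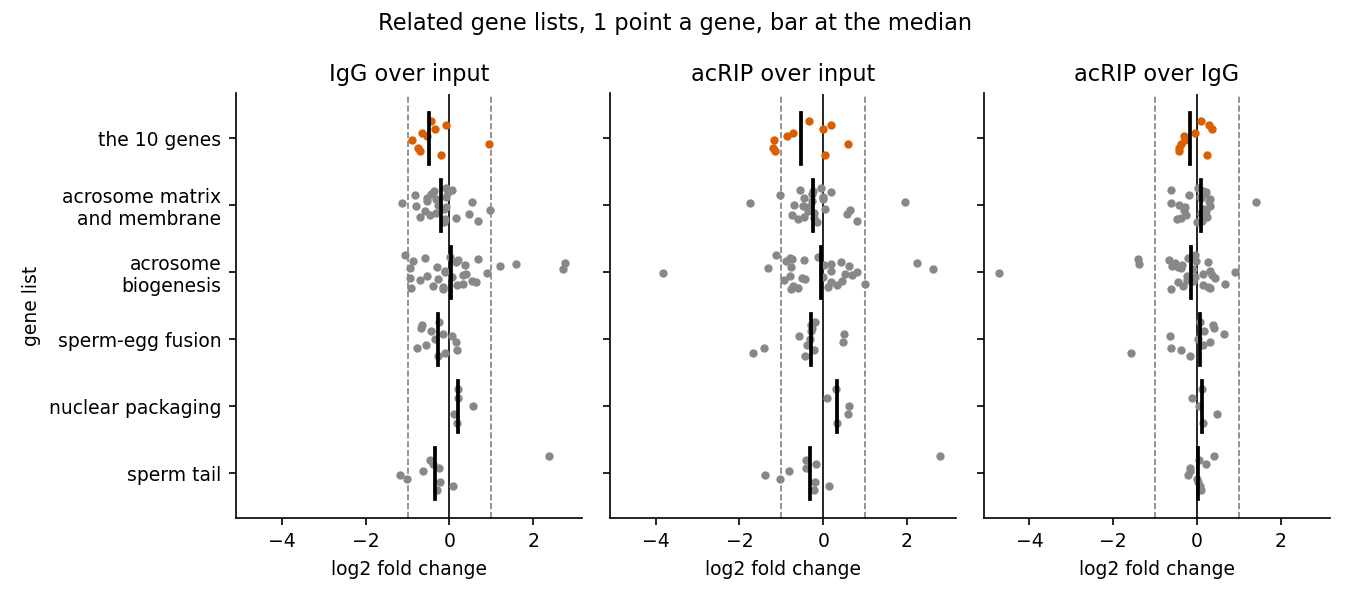
log2 fold change of the genes of each list, 1 point a gene, with a bar at the list's median and dashed lines at 2-fold. In acRIP over IgG the medians lie between -0.16 for the 10 genes and 0.11 for nuclear packaging.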

How the data were processed

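Poly(A) RNA of testis was sequenced in 9 libraries, grouped by the sample labels. The authors deposited counts of uniquely mapped reads per gene, not normalized, made with Trim Galore 0.6.7, STAR 2.7.10a on mm10 and featureCounts 2.0.2 by the submitters' processing notes. Which annotation release and strand setting were used, and if each pair gave 1 or 2 counts, is not given in the sources used here. Reads with near-identical copies elsewhere are lost to unique mapping. Smart-seq2 cDNA was amplified before library making, and removal of duplicates is named only for peaks, which were not analysed here. One sequence match is not reported here. Of 55401 gene identifiers, 55141 were named through GENCODE vM21.

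Counts were tested with edgeR 4.0.16 in R 4.3.3 (filterByExpr, TMM, quasi-likelihood test, one mean per group over all 9 libraries), with Benjamini-Hochberg adjustment over 22510 genes. A call needed a difference of over 2-fold at an adjusted p under 0.05. DESeq2 1.42.0, named in the study's methods, was an alternative. The procedure was tested on simulated data. FPKM was computed here from the counts, the table's merged exon lengths and the library totals, which ranged from 14647542 to 31340090 counts. Features and figures were made with Python 3.11.15 and matplotlib. Named were the 10 genes, from each other list up to 3 genes at either end of the log2 fold change over IgG with a mean of 100 counts or more, and the 5 genes most correlated with the mean profile. The members and lists were chosen with earlier results of these data known. Alternatives were other scalings and filters, fits of 6 libraries, a test against 2-fold (glmTreat), halved counts, a replicate block, other library totals for FPKM, each library left out, and, added after the data were seen, the protein-coding transcript and the 8-base form of the motif. Columns of per-sample values not used numbered 0.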

Additional observations from a re-analysis of the deposited data

How the results depend on the processing

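The member counts past 2-fold were the same under every alternative run: 0 higher and 0 lower in acRIP over IgG, 0 and 3 in acRIP over input, 0 and 0 in IgG over input. By adjusted p alone, leaving out one library gave 3 to 4 members higher in acRIP over IgG and 8 to 9 lower in IgG over input. Of 510 recomputed fold changes of members, 497 kept their direction and their side of the threshold, 4 lost it (all Acr in acRIP over IgG), 4 passed it (all Acrbp in IgG over input) and 5 changed sign. The sign changes were in acRIP over input: with upper quartile scaling Acrv1 had -0.0462 and Prss21 -0.0114, and with one library left out Acrv1 ran from -0.0165 (without input replicate 2) to 0.0292, with -0.00353 without acRIP replicate 3, and Prss21 from -0.00507 (without acRIP replicate 3) to 0.127. The cause was not tested. Of 612 recomputed counts of the other lists, 27 moved by over 1.5 times, and of 150 recomputed mean levels 36 moved by more than the SD, while in each group at least 8 of the 10 genes kept their place in the order under every alternative. No alternative changed the gene lengths, on which that order depends.

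Over all genes, requiring 10 counts in every library, which tests fewer genes, gave 1200 higher and 1427 lower in acRIP over IgG (2590 and 4701 in the main setting), 2495 and 1852 in acRIP over input (3984 and 5145) and 1906 and 611 in IgG over input (3028 and 1626). The glmTreat test against 2-fold, a stricter hypothesis, passed Spam1 (adjusted p = 0.0128), Zpbp2 (1.85e-05) and Izumo1 (0.00678) in acRIP over input and 0 members in the other comparisons. Over all genes it gave 1526 higher in acRIP over IgG, and 1724 higher and 563 lower in IgG over input. The motif was in 2 members in place of 4 with the protein-coding transcript and in 6 with the form of 8 bases.

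With the replicate number as a block (replicate block), 4 members were higher and 5 lower by adjusted p in acRIP over IgG, 2 and 6 in acRIP over input, and 1 and 9 in IgG over input, and genes called over all genes were 2557 higher and 4639 lower in acRIP over IgG. Same-numbered libraries did not deviate together (r from -0.01 to 0.03 over 9 pairs, and from -0.03 to 0.03 over 18 pairs of different numbers), so the numbers were not taken to pair samples.

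Limits: 3 libraries a group of unknown independence, shares of a library and not amounts, unknown strand setting, and per-gene totals that cannot place a signal within a transcript.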
